A study of Homo sapiens with 36 samples.

Results

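Gene-proximal sites of the hypoxia-inducible factors (HIFs) were taken as bound regions whose centre lay more than 1 kb and at most 10 kb from the nearest transcription start site (TSS) of a protein-coding gene. Overlapping peaks of the 15 anti-V5 peak lists of tagged lines were merged on chromosomes 1 to 22, X and Y, which gave 54907 merged regions. Of these, 25350 regions held peaks from at least 2 lists. The centre of a region was the median of its summits, the summit being the position of highest coverage in a peak. By this rule 4828 regions were gene-proximal, 7283 were promoter regions within 1 kb of a TSS and 13239 were distal regions beyond 10 kb. The rule used calls and positions, and no comparison between the lines.

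The study asked which part of HIF-1α and HIF-2α sets how each protein finds and binds its sites in chromatin. Cut&Run, in which an antibody tethers a nuclease that cuts out the DNA around a bound protein, was done in 786-O cells, which come from a human clear cell renal carcinoma, have lost VHL function and functional HIF-1α, and keep HIF-2α stable in normal oxygen. All 36 samples came from 6 lines of these cells with 3 replicates each, and every replicate had 1 library with an antibody to the V5 tag and 1 with mouse IgG. Wild-type (WT) cells carried no tag and gave the background of the V5 antibody. The knock-in line (HIF-2α KIN) was a single clone, A31, in which the cells' own HIF-2α carried V5 and Halo tags. The other 4 lines expressed a V5- and Halo-tagged protein stably and at a low level from the L30 promoter in WT cells, which still held their own untagged HIF-2α. They made either HIF-2α, HIF-1α or 1 of the chimeras HIF-2α/1α and HIF-1α/2α. In a chimera's name the N-terminal portion, which binds DNA and ARNT, comes first (DBD in what follows), and the C-terminal portion, largely disordered, comes after the slash (IDR in what follows). HIF-2α/1α joined HIF-2α up to residue 365 to residues 364 to 826 of HIF-1α, and HIF-1α/2α joined HIF-1α up to residue 363 to residues 366 to 870 of HIF-2α. Tagged lists held 3984 to 20808 peaks and WT lists held 392, 9508 and 743, and in each of the 6 lines the list of replicate 2 was the longest. The depth worked out from the peak lists was 0.253 to 0.625 fragments per base in tagged and 0.241 to 0.302 in WT libraries. No label says that replicates were separate cultures, so p-values measure only the spread between these samples. Comparisons by IDR or DBD set a pair of exogenous lines against the other pair, with the replicates of a line counted as separate libraries. Other differences between the lines can therefore not be told apart from those of a domain.

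HIFs act as pairs of an α subunit with HIF-1β (ARNT) and bind the hypoxia response element (HRE), a short element with the core ACGTG or GCGTG. Without VHL the α subunit escapes degradation, and genes of glucose uptake, glycolysis, angiogenesis and cell growth are turned on, which drives clear cell renal carcinoma. Sites a few kb from a TSS lie mostly in first introns and upstream flanks, where enhancers are common and AP-1, a dimer of FOS and JUN proteins that binds TGACTCA or TGAGTCA, is a frequent partner of other factors.

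Sequences are shown for 12 gene-proximal regions, each called in 15 of 15 tagged lists and 0 of 3 WT lists, because they hold the sites at which tagged HIF was strongest or lay beside a known HIF target. Each sequence is read 5′ to 3′ on the plus strand of hg38 around the HRE core nearest the region's centre, and capitals mark every ACGTG or GCGTG on either strand, so that a core on the minus strand appears as CACGT or CACGC. None of these windows overlaps an exon. The first 7 are among the 8 strongest and the last 5 lie beside HIF targets.
TMEM94 (chr17:75453172-75453292): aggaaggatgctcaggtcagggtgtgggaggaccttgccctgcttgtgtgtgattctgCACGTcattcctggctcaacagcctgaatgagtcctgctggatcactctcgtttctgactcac
RARA (chr17:40312466-40312586): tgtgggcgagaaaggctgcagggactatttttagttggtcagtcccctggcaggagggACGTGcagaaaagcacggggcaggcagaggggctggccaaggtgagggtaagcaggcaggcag
ENSG00000170846 (chr4:6668414-6668534): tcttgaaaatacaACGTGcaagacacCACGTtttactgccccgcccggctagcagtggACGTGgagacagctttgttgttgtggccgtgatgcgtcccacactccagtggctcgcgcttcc
PDGFB (chr22:39252304-39252424): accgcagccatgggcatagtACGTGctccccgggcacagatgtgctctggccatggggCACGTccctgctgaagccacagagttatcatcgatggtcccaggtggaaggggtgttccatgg
SYT8 (chr11:1830813-1830933): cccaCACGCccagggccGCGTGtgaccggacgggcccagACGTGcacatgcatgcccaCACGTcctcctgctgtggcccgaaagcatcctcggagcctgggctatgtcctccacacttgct
SEMA4B (chr15:90165866-90165986): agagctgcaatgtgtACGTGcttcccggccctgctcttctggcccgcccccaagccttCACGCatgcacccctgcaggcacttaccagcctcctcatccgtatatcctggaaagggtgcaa
PTPRB (chr12:70645726-70645846): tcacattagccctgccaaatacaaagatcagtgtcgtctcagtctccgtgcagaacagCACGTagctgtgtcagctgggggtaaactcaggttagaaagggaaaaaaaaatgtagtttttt
SLC2A1 (chr1:42962744-42962864): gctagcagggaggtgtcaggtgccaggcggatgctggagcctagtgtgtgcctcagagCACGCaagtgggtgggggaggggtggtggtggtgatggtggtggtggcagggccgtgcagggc
PFKFB3 (chr10:6201805-6201925): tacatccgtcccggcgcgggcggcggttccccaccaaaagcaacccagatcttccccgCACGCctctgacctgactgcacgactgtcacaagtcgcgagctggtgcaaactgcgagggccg
ANGPTL4 (chr19:8362085-8362205): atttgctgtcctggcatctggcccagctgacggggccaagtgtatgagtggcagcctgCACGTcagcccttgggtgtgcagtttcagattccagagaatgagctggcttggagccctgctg
PTPRN (chr2:219298890-219299010): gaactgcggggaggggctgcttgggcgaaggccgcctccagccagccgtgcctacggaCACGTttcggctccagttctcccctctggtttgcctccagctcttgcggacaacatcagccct
MXI1 (chr10:110222039-110222159): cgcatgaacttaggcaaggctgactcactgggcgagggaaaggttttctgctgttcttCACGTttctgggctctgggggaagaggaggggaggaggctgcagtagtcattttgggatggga

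Among all 25350 regions, 24.8% held an HRE core within 50 bp of the centre and 38.0% in a window of that width moved to the lower-coordinate side, as described below. Among the gene-proximal regions these shares were 21.7 and 35.3%. SYT8 held 4 cores in the window shown and ENSG00000170846 held 3, while most windows held 1. The TACGTG form was present at PDGFB, SEMA4B and PTPRB.

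Gene-proximal regions were spread over many genes and were densest close to the TSS. The zone from 1 to 10 kb covered 14.6% of the genome and held 19.0% of the regions, or 11.3 regions per Mb, against 5.43 per Mb beyond 10 kb. Downstream of the TSS lay 2542 regions and upstream lay 2286. Introns held 3122 regions (64.7%), and 2048 (42.4%) were in the first intron of the nearest gene. A further 1365 were intergenic, 172 overlapped an untranslated region and 169 a coding exon at their centre.

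**Figure D1:**
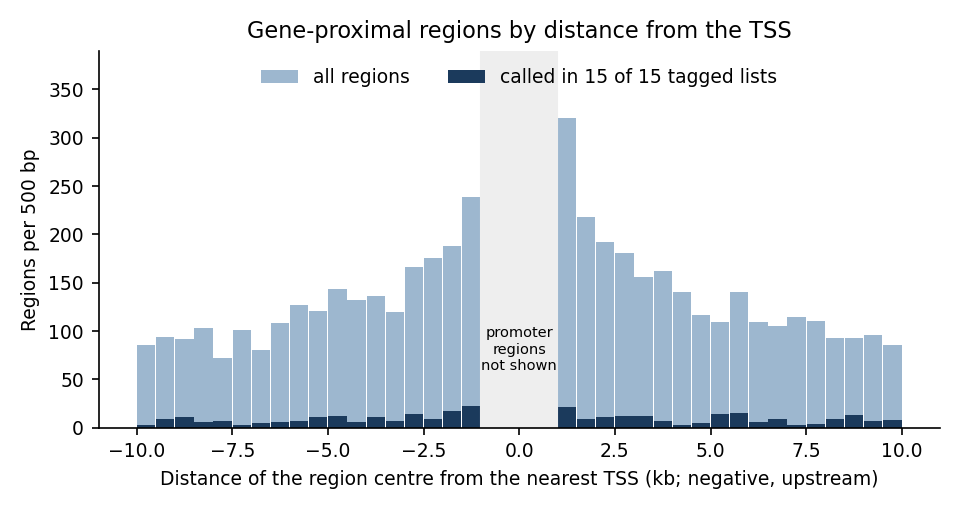
Regions per 500 bp against the distance of their centre from the nearest protein-coding TSS in kb, upstream to the left. Light bars are all gene-proximal regions and dark bars those called in 15 of 15 tagged lists. The bin from 1 to 1.5 kb downstream holds 320 regions and the one from 9.5 to 10 kb downstream holds 86.

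The limits of the zone cut through a continuous distribution. Between 1 and 1.1 kb from a TSS lay 139 members, of which 47.5% held an HRE core, and between 0.9 and 1 kb, just outside, lay 131 regions, of which 45.8% did. Between 9.5 and 10 kb lay 172 members (32.0% with a core) and from 10 to 10.5 kb lay 168 regions (37.5%). A region can be wider than its distance from the TSS, and 90 members contained a protein-coding TSS. Among them were the regions named below at SLC2A1, PFKFB3, TNFSF10 and VGLL4.

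The 4828 regions had 3228 nearest genes, of which 2274 had 1 region each and 76 had 5 or more. SMAD3, a signal transducer of transforming growth factor β, had the most with 15, and 3 of these met the calls of the sequences above, 15 of 15 tagged and 0 of 3 WT lists. SEPTIN9, a cytoskeletal GTPase, had 12, and ZNF395 had 11. The glucose transporter gene SLC2A1 and PFKFB3, which makes an activator of glycolysis, had 8 each. A promoter region was also present at 1617 of the 3228 genes (50.1%).

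Calls differed widely between libraries. A median gene-proximal region was called in 5 of 15 tagged lists, 1078 regions were called in 2 and 336 (6.96%) in all 15, against 6.79% of all 25350 regions. Of those 336 regions, 222 were called in no WT list, so that 222 of 4828 met both conditions, against 1201 of all 25350. Some WT list called 669 of the 4828 regions (13.9%), against 3255 of all 25350 (12.8%). WT replicate 2 called 13.2% of the 4828 regions, replicate 3 2.51% and replicate 1 0.104%. The regions were chosen from tagged lists, so the lower share in WT is a description. Of the 463 regions called in 3 of 3 HIF-2α KIN lists, 336 (72.6%) were called in all 12 lists of the exogenous lines. Of the 518 regions called in all 12 exogenous lists, 14 were called in none of the KIN lists. Calls of 232 regions (4.81%) came from 1 tagged line, a share that the minimum of 2 lists lowers, since regions of a single list were left out.

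The share of gene-proximal regions called was 13.0, 35.3 and 26.0% in the 3 KIN libraries and 21.7, 63.1 and 19.7% in the 3 HIF-2α libraries. It was 56.1, 70.0 and 42.6% with HIF-2α/1α, 49.4, 65.7 and 53.3% with HIF-1α, and 41.1, 53.2 and 39.5% with HIF-1α/2α. Replicate 2 was the highest in each line. The groups overlapped: the 6 libraries with the HIF-2α IDR ran from 19.7 to 63.1% (median 40.3%) and the 6 with the HIF-1α IDR from 42.6 to 70.0% (median 54.7%). The mean was 16.5 percentage points lower with the HIF-2α IDR, with p = 0.075 in a two-sided exact permutation test within each DBD over 400 relabellings and an adjusted p of 0.142. Without HIF-2α replicate 2 the difference was -23.5 points with an adjusted permutation p of 0.0319, and with all lists cut to the length of the shortest tagged list it was -0.02 points. By DBD the difference was -4.83 points, with exact permutation p = 0.575. The regions were chosen from calls in these same lists, and a longer list placed more of its own calls among them. These p-values therefore give no independent support for a difference between domains. Adjusted p-values of the exact tests were taken over 17 tests of single values with the Benjamini-Hochberg method.

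**Figure D2:**
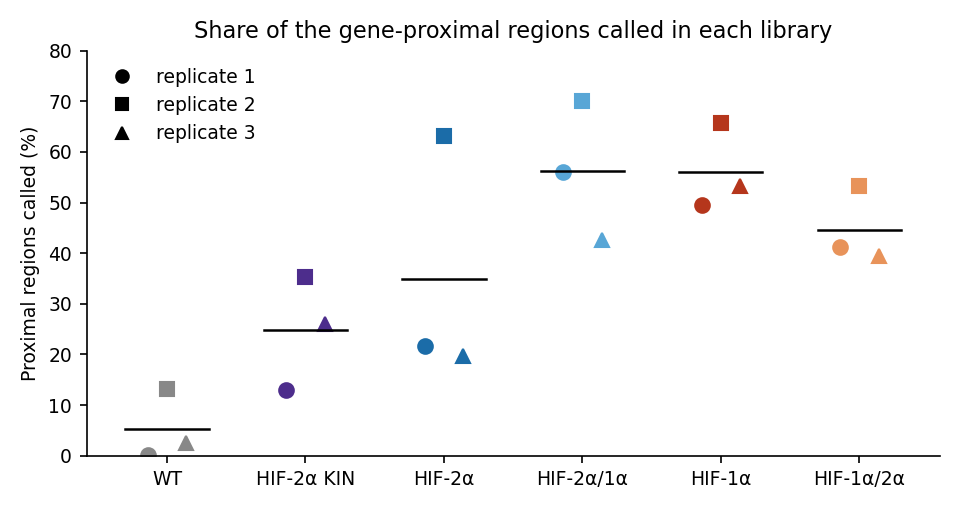
Percent of the 4828 gene-proximal regions called in each of the 18 anti-V5 libraries, by line on the horizontal axis and by replicate as the marker; the black line is the mean of 3. HIF-2α replicate 2, at 63.1%, stands apart from the other HIF-2α libraries at 21.7 and 19.7%, and WT libraries reach 13.2%.

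Single regions were compared by calls in 6 against 6 libraries with a two-sided Fisher's exact test over all 25350 regions, and none passed after adjustment, the smallest adjusted p being 1. With 6 against 6 libraries even a complete split gives a p too large to pass this adjustment, unless very many regions split so. The lack of passing regions therefore does not show that calls were alike. At an unadjusted exact p under 0.05, 4 gene-proximal regions were called more often with the HIF-2α IDR, where the background over all regions was 0.0947%, and 75 were called more often with the HIF-1α IDR, where it was 1.32%. By DBD, 5 regions were called more often with HIF-2α (background 0.0750%) and 25 with HIF-1α (background 0.489%). With lists of equal length the IDR counts were 16 and 14, so that the excess of regions called more often with the HIF-1α IDR was not present there.

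Gene-proximal peaks made up a nearly constant share of the tagged lists, from 18.6 to 20.2% in the 15 lists (mean 19.3% ± 0.43 SD). The WT lists gave 13.5, 18.2 and 19.8%. The tagged mean was 2.16 percentage points higher, with p = 0.0294 in a two-sided exact permutation test over 816 relabellings and an adjusted p of 0.0625. The difference was 0.34 points without WT replicate 1, which has 53 gene-proximal peaks, 3.47 points with an adjusted permutation p of 0.0156 without WT replicate 3, and 3.74 points with an adjusted permutation p of 0.00521 when 1 TSS per gene was used. Between the IDRs the share differed by -0.233 points (exact permutation p = 0.225), by -0.753 points with 1 TSS per gene (adjusted permutation p = 0.0319) and by 0.519 points in lists of equal length, and between the DBDs by 0.156 points (exact permutation p = 0.395).

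The HRE core was enriched at gene-proximal peaks of the tagged lines, and it lay to 1 side of the summits. Along the plus strand the excess of HRE cores was centred 79 bp on the lower-coordinate side of the summit over all peaks of the tagged lists, and that of AP-1 sites 82 bp on the same side. Over all peaks of a library the centre was 75 to 85 bp away for the HRE and 75 to 86 bp for AP-1. At gene-proximal summits, HRE cores within 200 bp on the lower side numbered 3.72 to 5.57 per kb across the 15 tagged lists. On the higher side they numbered 1.92 to 2.47 per kb, against 1.76 to 2.13 per kb beyond 300 bp. The lower side had more HRE cores and more AP-1 sites than the higher side in 15 of 15 tagged lists. In WT replicate 2, the longest WT list, AP-1 sites were at 0.909 per kb on the lower and 0.385 per kb on the higher side of gene-proximal summits, while HRE cores were at 1.92 and 1.74 per kb. The cause of this displacement was not tested. In 11 of the 12 sequences above the nearest core lay on the lower side of the region's centre, by 7 to 119 bp, and at PFKFB3 it lay 71 bp on the higher side.

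**Figure D3:**
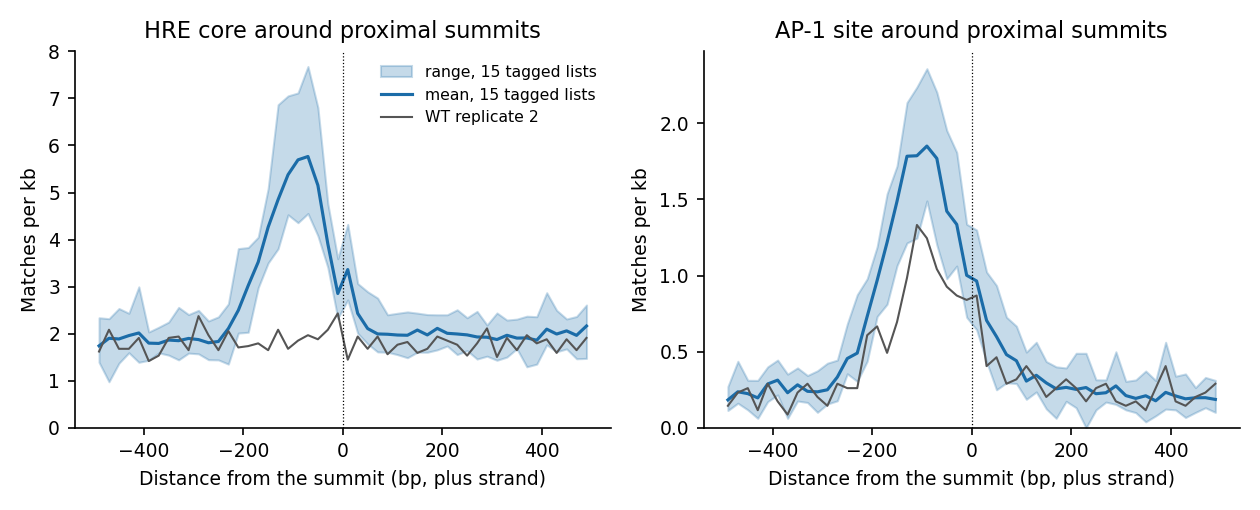
Matches per kb of the HRE core (left) and the AP-1 site (right) against the distance from the summit in bp along the plus strand, in bins of 20 bp, at gene-proximal peaks. The blue line is the mean and the band the range of 15 tagged lists, and the grey line is WT replicate 2; both motifs peak on the lower side of the summit, and the WT line is flat for the HRE and peaked for AP-1.

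Because of this displacement, motif shares are given in the window of 50 bp to each side of the summit and also in a window of equal width moved to the lower side, by 82 bp for the HRE and by 79 bp for AP-1, which is the displacement of the other motif. This choice was made after the displacement was seen. An excess is the share of summits holding the motif less the mean share of windows 1 kb to each side, in percentage points. At the summit, 20.0 to 25.1% of gene-proximal peaks in tagged lists held an HRE core, for an excess of 5.36 to 9.91 points (median 7.15). The WT lists had an excess of 1.89, -0.376 and 3.06 points, and the groups did not overlap. The tagged mean was 5.76 points higher, with p = 0.00123 in a two-sided exact permutation test, the smallest that 816 relabellings can give, and an adjusted p of 0.00674. In the moved window 30.0 to 45.4% of the tagged peaks held a core, the excess was 15.2 to 29.7 points against -7.55, 0.550 and -3.74 in WT, and the difference was 25.3 points (adjusted permutation p = 0.00674). Against a control motif of equal base composition, TGCGA or TGCGG, in the same window, the difference was 1.75 points at the summit (adjusted permutation p = 0.153) and 21.3 points in the moved window (adjusted permutation p = 0.00674).

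AP-1 sites were about as frequent in tagged as in some WT lists. The AP-1 excess at summits was 5.58 to 9.59 points (median 7.35) in tagged and -2.83, 5.07 and 10.5 in WT lists, and the groups overlapped. The difference of 3.07 points had an exact permutation p of 0.12, adjusted 0.186, and it was -0.47 points without WT replicate 1 and 6.21 points with an adjusted permutation p of 0.0156 without WT replicate 3. In the moved window it was 5.46 points, with an adjusted permutation p of 0.0391, and WT replicate 3, which at 10.5 points was above every tagged list at the summit, lay at 14.3 points within the tagged range of 10.4 to 15.3.

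With the HRE core and AP-1 site as defined above, neither domain gave a difference in excess at gene-proximal summits that passed the threshold, but some alternatives for the HRE did. The HRE excess was 7.29 ± 1.52 points for the HIF-2α IDR against 7.14 ± 0.54 for the HIF-1α IDR (SD, 6 libraries each), with exact permutation p = 0.840. By DBD it was 7.71 ± 1.31 points with HIF-2α and 6.72 ± 0.56 with HIF-1α (exact permutation p = 0.12), and 23.4 ± 4.84 against 19.5 ± 1.40 in the moved window (exact permutation p = 0.105). HIF-2α replicates 1 and 3, at 29.2 and 29.7 points in the moved window, were the highest of the 12 libraries and had the shortest lists of them. The difference passed for TACGTG by IDR (0.889 points, adjusted permutation p = 0.0425), and by DBD against the control motif (1.48 points, adjusted permutation p = 0.0319) and without HIF-2α replicate 2 (1.48 points, adjusted permutation p = 0.0121). For AP-1 the exact permutation p was 0.340 by IDR and 0.820 by DBD.

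Within a library, gene-proximal peaks lay closer to distal peaks than to promoter peaks in HRE and AP-1 excess at the summit. The HRE excess at summits was 14.3 points lower than at promoter peaks, in 15 of 15 tagged libraries, with p = 6.1e-05 in a two-sided exact sign-flip permutation test, the smallest it can give, and an adjusted p of 0.000519. That direction turned with the control motif, which was counted in the same window to allow for base composition: the difference was then 1.24 points at the summit (adjusted permutation p = 0.147) and 3.03 points in the moved window (adjusted permutation p = 0.00415). The median GC content around the centre was 52.5% at gene-proximal and 66.3% at promoter regions. Against distal peaks the HRE excess was 0.819 points lower (exact permutation p = 0.00433, adjusted 0.0123), but 0.05 points higher in the moved window and 1.24 points higher with 1 TSS per gene. The AP-1 excess was 6.15 points higher than at promoter peaks in 15 of 15 libraries (exact permutation p = 6.1e-05, adjusted 0.000519) and 0.784 points lower than at distal peaks in 12 of 15 (exact permutation p = 0.00287, adjusted 0.00975). Peak strength, as the median percentile of fold enrichment within a list, was 3.30 percentiles below promoters in the mean (adjusted permutation p = 0.00674) and 1.62 above distal peaks (adjusted permutation p = 0.0165). Among peaks with a −log10 q of at least 5 these differences were 0.53 and -0.05, of opposite sign.

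**Figure D4:**
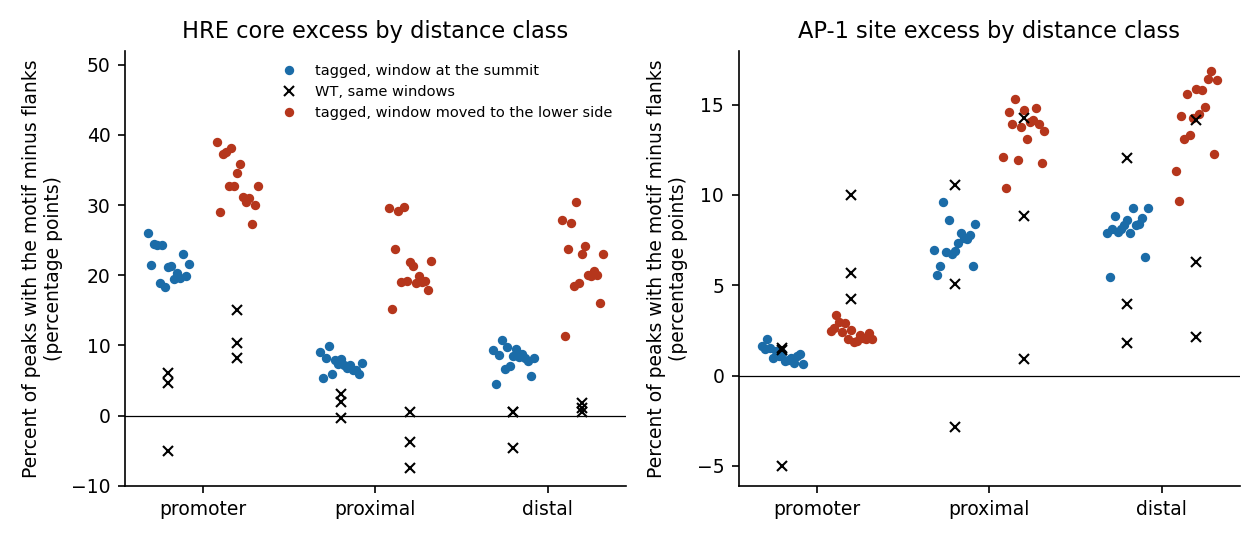
Percent of peaks with the HRE core (left) or AP-1 site (right) minus the percent in flanking windows, in percentage points, for promoter, gene-proximal and distal peaks of each library. Dots are the 15 tagged libraries, blue at the summit and red in the window moved to the lower side, and crosses are the 3 WT libraries in the same windows; the HRE excess at gene-proximal peaks is 5.36 to 9.91 points in blue and 15.2 to 29.7 in red.

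Regions called in 15 lists held the HRE core more often than those called in 2. In the moved window the core was in 23.9% of gene-proximal regions called in 2 lists, 30.3% of those in 3 to 5, 33.7% in 6 to 10, 49.8% in 11 to 14 and 68.5% in 15. The share in flanking windows was 13.3 to 18.3% in these classes. At the centre the shares were 18.8, 17.7, 23.3, 27.1 and 30.4%, a smaller spread that did not rise at each step. In the moved window the full TACGTG form was in 4.17% of regions called in 2 lists and in 22.6% of those called in 15. AP-1 sites were in 14.8% and 17.3% of the same classes. Wider regions are called in more lists, with a median width of 414.5 bp at 2 lists and 1608 bp at 15, and GC content was 49.5 and 54.5%; their part in the difference was not tested.

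In the moved window the 669 regions that some WT list also called held the core in 30.9%, against 36.0% of the other 4159 regions, and AP-1 sites in 20.0% against 16.8%. At the centre the order was the opposite for both motifs, with the core in 24.1% against 21.3% and AP-1 sites in 8.97% against 9.86%. By distance the core was in 39.7% of regions at 1 to 2 kb, 34.2% at 2 to 5 kb and 34.2% at 5 to 10 kb in the moved window, and in 24.8, 19.9 and 21.8% at the centre. Of the 4 classes by annotation, regions centred in coding exons held the core most often, in 46.2% in the moved window and 30.8% at the centre, with 21.6% in the flanks of the moved window and a GC content of 62.4%.

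The strongest gene-proximal sites were named by the mean percentile of fold enrichment over the 15 tagged lists, among the 222 regions called in all of them and in no WT list. They are described without a test. The first was in an intron of TMEM94, 3288 bp upstream of the nearest TSS, with a fold enrichment over the local background of 30.1 to 209 (median 69.2). The second was in an intron of RARA, the retinoic acid receptor α gene, 3419 bp downstream of the TSS, with 28.2 to 197 (median 55.7). The lowest value of both sites was in a KIN library and the highest in a HIF-2α library.

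The others followed closely. An intronic site of ENSG00000170846 had a fold of 24.5 to 175 (median 57.4). A site 7448 bp upstream of PDGFB, which encodes a chain of platelet-derived growth factor, had 20.1 to 173 (median 54.3). An intronic site of TSNARE1, a gene of a SNARE-domain protein, had 19.1 to 193 (median 54.2). Sites of SYT8, a synaptotagmin gene, of the semaphorin gene SEMA4B and of PTPRB, a receptor tyrosine phosphatase of vascular endothelium, had medians of 64.7, 51.2 and 50.1. The PTPRB site lay in an intron of the neighbouring gene PTPRR.

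Known HIF targets had gene-proximal regions at 61 of 95 genes of a list grouped by role, 140 regions in all, of which 9 at 6 genes had calls in 15 of 15 tagged and 0 of 3 WT lists. Over all gene-proximal regions that figure was 222 of 4828. A promoter region met the same criterion at 34 of the 95 genes, and over all promoter regions 372 of 7283 met it. The first of these is a share of genes and the second a share of regions, so they cannot be compared. Shares over all protein-coding genes were not worked out. Of 18 genes of glucose uptake and glycolysis, 12 had gene-proximal regions, 32 in all, and SLC2A1, PFKFB3 and PFKP met the criterion. Of 10 angiogenic and vasoactive genes, 9 had regions, and ANGPTL4, which encodes an inhibitor of lipoprotein lipase, met it. Among 12 genes of mitophagy and stress MXI1 met it, a partner of MAX that opposes MYC. No gene of pyruvate use, oxygen sensing, pH control, matrix, growth or lipid and iron met it, although 10 of 11 growth and motility genes had gene-proximal regions (29 in all). PTPRN, which encodes a protein of secretory granules, met it too, but the study showed PTPRN, PPFIA4, HSD3B7 and PLXNA2 as its own examples from these samples, so it is no independent choice.

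The SLC2A1 site, 4031 bp upstream of the nearest TSS, had a fold enrichment of 22.0 to 100.4 (median 50.9) over the 15 tagged lists, and the PFKFB3 site, 1072 bp upstream, 13.9 to 98.2 (median 47.2). ANGPTL4, 1043 bp upstream, had 11.6 to 53.8 (median 31.1), and PTPRN, in an intron 2646 bp upstream of the nearest TSS, 9.89 to 109 (median 31.9). MXI1 and PFKP were weaker, with 5.68 to 31.2 (median 14.6) and 5.36 to 24.9 (median 11.9). At PFKFB3 the mean fold enrichment was 55.0 ± 23.1 in HIF-2α KIN, 20.5 ± 8.15 with HIF-2α, 43.8 ± 11.2 with HIF-2α/1α, 39.0 ± 13.6 with HIF-1α and 77.6 ± 22.8 with HIF-1α/2α (SD, n = 3). The 3 exogenous HIF-2α libraries, at 13.9 to 29.6, lay below every library of the other 4 tagged lines, KIN at 35.9 to 80.7 included. The gap was small, with HIF-1α replicate 3 at 30.0, and the order did not hold in full for the relative summit signal described below.

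Signal at single sites was compared between domains at the 2720 regions called in all 12 exogenous lists, 518 of them gene-proximal, or 10.7% of the 4828. Where a library had more than 1 peak in a region, the peak of highest −log10 p stood for the region, wherever in it that peak lay. This also holds for the fold enrichments of single sites above. The relative summit signal is the number of fragments at the summit over the median of that library's fitted regions. It was fitted on the log2 scale with limma across all 2720 regions, with a term for the IDR and 1 for the DBD. No term stood for the line, so SEs and p-values count the replicates of a line as separate.

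By IDR, 128 gene-proximal regions were higher with the HIF-2α IDR at an adjusted p under 0.05, where the background over all regions was 24.4%, and 82 were higher with the HIF-1α IDR, where it was 18.4%. The members' shares, 24.7 and 15.8%, were near those backgrounds. The median log2 difference was 0.06 at gene-proximal regions, -0.25 at 771 promoter regions and 0.17 at 1431 distal regions, so that gene-proximal regions lay between the other classes. By DBD, 102 were higher with HIF-2α (background 17.9%) and 76 with HIF-1α (background 13.7%), with a median difference of 0.09 against 0.05 at promoters and 0.08 at distal regions. These are limma's results, and they depend on the scaling. With each library scaled by its depth the median over all 2720 regions moved from 0.02 to -0.21 by IDR and from 0.08 to 0.11 by DBD. Of the gene-proximal regions only 1 by IDR and 3 by DBD then passed. With quantile normalization the split of gene-proximal regions by IDR was 99 and 92 and that by DBD 90 and 77.

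**Figure D5:**
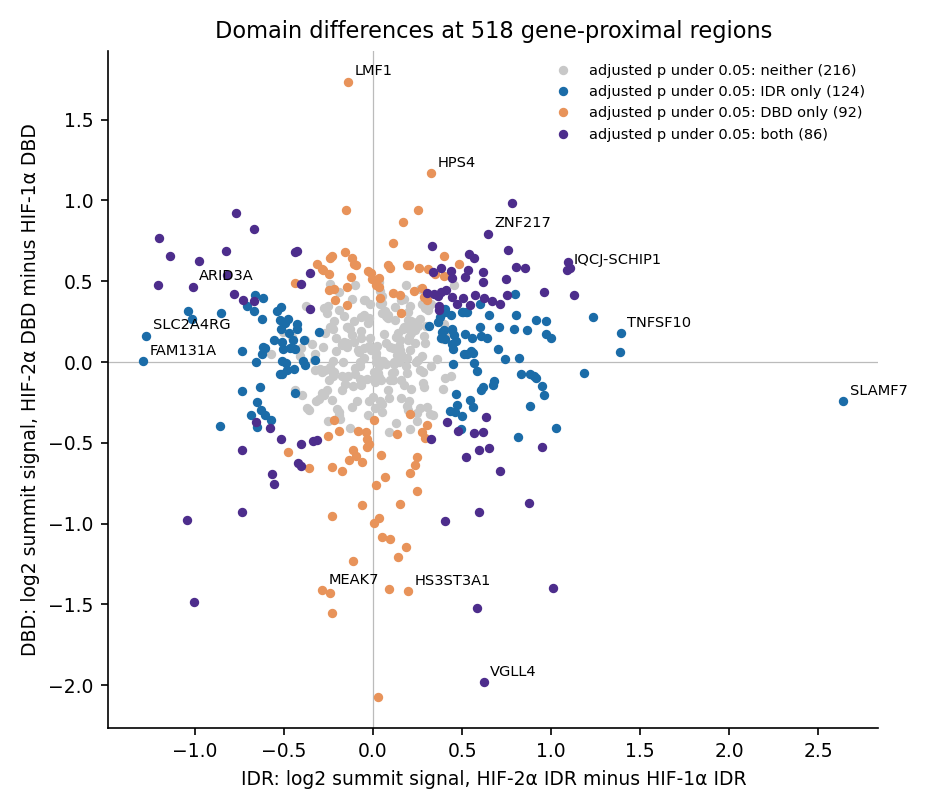
Log2 difference in relative summit signal by IDR (horizontal) and by DBD (vertical) at the 518 fitted gene-proximal regions, HIF-2α minus HIF-1α in both, with 1 dot per region and the 12 named regions labelled. Colours give which contrast has a limma adjusted p under 0.05: 216 regions neither, 124 the IDR alone, 92 the DBD alone and 86 both.

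Regions with more signal for the HIF-2α IDR held the TACGTG form in a larger share of moved windows than those with more for the HIF-1α IDR. It was in 38.3% of the 128, in 8.54% of the 82 and in 18.2% of the 308 that did not pass. A core of either form was in 75.8, 65.9 and 60.4% in the moved window, but in 23.4, 35.4 and 29.5% at the centre, where the HIF-1α IDR regions held it more often. Their median GC contents were 49.5, 57.4 and 55.4%. By DBD the shares with TACGTG in the moved window were 27.5% of the 102 and 17.1% of the 76. These shares are given without a test, and the part of GC content was not tested.

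The sites that differed most by IDR were named by the smallest adjusted p in each direction. At SLAMF7, a gene of an immune cell receptor, the relative signal was 1.74 to 2.50 (median 1.94) in the 6 libraries with the HIF-2α IDR and 0.219 to 0.422 (median 0.323) in the 6 with the HIF-1α IDR. The groups were far apart, with a log2 difference of 2.64 ± 0.16 (SE) and limma's adjusted p of 1.15e-12. This intronic site, 9279 bp downstream of the TSS, was called in all 12 exogenous lists and in no KIN list. By DBD its difference was -0.24 ± 0.16 (limma adjusted p = 0.273).

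At TNFSF10, the gene of the death ligand TRAIL, the signal was 2.42 to 4.30 with the HIF-2α IDR and 1.00 to 1.95 with the HIF-1α IDR, a log2 difference of 1.39 ± 0.15 (limma adjusted p = 3.59e-08). At IQCJ-SCHIP1 it was 2.43 to 3.39 and 0.953 to 1.83, a difference of 1.09 ± 0.12 (limma adjusted p = 6.44e-08). In neither did the groups overlap. IQCJ-SCHIP1 also differed by DBD (log2 0.57 ± 0.12, limma adjusted p = 0.000685). The TNFSF10 region, 2775 bp wide, contained a TSS. The sites with more signal for the HIF-1α IDR were at FAM131A, SLC2A4RG, which encodes a regulator of a glucose transporter gene, and ARID3A, a gene of a DNA-binding protein of the ARID family. FAM131A had 0.438 to 0.692 with the HIF-2α IDR and 1.22 to 1.54 with the HIF-1α IDR (log2 -1.29 ± 0.15, limma adjusted p = 1.18e-07). SLC2A4RG had 0.410 to 0.654 and 1.12 to 1.44 (log2 -1.27 ± 0.15), and ARID3A 0.674 to 1.38 and 1.47 to 3.03 (log2 -1.01 ± 0.15). The ARID3A region was also called in 1 WT list, and it also differed by DBD (log2 0.47 ± 0.15, limma adjusted p = 0.016). The SLC2A4RG region was called in no KIN list.

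By DBD the named sites with more signal for HIF-2α were at LMF1, a lipase maturation factor gene, HPS4, whose product acts in the making of lysosome-related organelles, and ZNF217, a zinc finger gene. LMF1 had 2.31 to 4.19 with the HIF-2α DBD and 0.435 to 1.29 with the HIF-1α DBD (log2 1.74 ± 0.20, limma adjusted p = 1.25e-07). HPS4 had 1.03 to 1.58 and 0.378 to 0.702 (log2 1.17 ± 0.16), and its site lay in an untranslated region of the neighbouring gene SRRD. ZNF217 had 1.47 to 2.63 and 0.844 to 1.43 (log2 0.79 ± 0.12), and it also differed by IDR (log2 0.64 ± 0.12, limma adjusted p = 9.1e-05).

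With more signal for the HIF-1α DBD were HS3ST3A1, a heparan sulfate sulfotransferase gene, VGLL4, whose product restrains TEAD factors, and MEAK7, a gene of an mTOR-associated protein. HS3ST3A1 had 1.00 to 1.31 with the HIF-2α DBD and 2.51 to 3.81 with the HIF-1α DBD (log2 -1.42 ± 0.12, limma adjusted p = 2.25e-09), and 2 WT lists called it. VGLL4 had 0.235 to 0.538 and 0.819 to 2.11 (log2 -1.98 ± 0.18), and MEAK7 0.656 to 1.22 and 2.07 to 2.40 (log2 -1.41 ± 0.13). The VGLL4 region, 2235 bp wide, contained a TSS, and it also differed by IDR (log2 0.62 ± 0.18, limma adjusted p = 0.00647). The 2 groups of 6 libraries did not overlap in relative summit signal at any of these 12 sites, which were chosen for their difference. In fold enrichment the groups overlapped at some of them, SLAMF7 included. Under depth scaling every one of the 12 kept its direction and SLAMF7, LMF1 and VGLL4 passed. A term for the interaction of IDR and DBD passed with limma at none of the 518 regions and at 8 of all 2720. Of the 518, 52 had an unadjusted limma p under 0.05, and their smallest adjusted p was 0.0583.

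Of the 8 strongest sites, all had a positive log2 difference by IDR, 0.38 to 0.82 with a limma adjusted p under 0.05, but the groups of 6 overlapped at 6 of them and none passed under depth scaling. Over all fitted regions 24.4% were higher with the HIF-2α IDR. The 8 were ranked over all tagged lists, more of which carry the HIF-2α IDR than the HIF-1α IDR, KIN included. Their shared direction is therefore not independent of the ranking. Under quantile normalization RARA, TSNARE1 and SYT8 passed and the other 5 did not. RARA had 3.27 to 5.19 with the HIF-2α IDR and 2.00 to 2.53 with the HIF-1α IDR (log2 0.79 ± 0.12, limma adjusted p = 5.08e-06). TMEM94 also differed by DBD (log2 0.45 ± 0.12, limma adjusted p = 0.00728).

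Of the 140 regions beside HIF targets, 21 at 16 genes were fitted. By IDR 7 were higher with HIF-2α, 3 with HIF-1α and 11 did not pass, with a median log2 difference of 0.21, where 24.4 and 18.4% of all fitted regions passed. By DBD 2 were higher with HIF-2α, 6 with HIF-1α and 13 did not pass, with a median of -0.05, where 17.9 and 13.7% of all fitted regions passed. NDRG1, a stress-responsive gene, had a log2 difference of 0.91 ± 0.14 by IDR (limma adjusted p = 1.13e-05), and CA12, a carbonic anhydrase gene, 0.75 ± 0.11 (limma adjusted p = 4.37e-06). PTPRN, among the 3 higher with the HIF-1α IDR, had 0.808 to 1.47 for the HIF-2α IDR and 1.76 to 3.41 for the HIF-1α IDR (log2 -1.02 ± 0.15, limma adjusted p = 5.64e-06), and the groups did not overlap. The study showed the PTPRN locus, from these same samples, as an example of more binding with the HIF-1α IDR. Its direction here is therefore no independent result.

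PFKFB3 held 2 fitted regions that differed by DBD in opposite directions. The one 1072 bp upstream of its TSS was lower with the HIF-2α DBD, 0.610 to 1.36 against 1.07 to 2.79 (log2 -0.999 ± 0.187, limma adjusted p = 0.000182), and its groups overlapped. The one at -2099 bp from another PFKFB3 TSS was higher (log2 0.68 ± 0.13, limma adjusted p = 0.000318). SLC2A1 at -4031 bp and -7242 bp, both ANGPTL4 regions and MXI1 did not pass in either contrast. SLC2A1 at -8559 bp was lower with the HIF-2α DBD (log2 -0.47 ± 0.17, limma adjusted p = 0.0322) and did not pass by IDR.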

How the data were processed

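Cut&Run libraries were aligned by the authors to hg38 with Bowtie2 2.3.4.1, and MACS2 called peaks of each anti-V5 library against its matched IgG library at q under 0.01 with a maximum gap of 400 bp. The deposited lists give each peak's fold enrichment over the local background, and its p and q as −log10 values, computed by the authors with MACS2. Each library had its own list, and no reads were used here. The fragments at each summit and the depth were solved from fold and −log10 p, which gave whole fragments that returned the −log10 p within 0.001 for 100% of peaks in 17 lists, and within 0.01 for 99.96% in HIF-2α/1α replicate 2, whose pileup was scaled. Counting error alone limits sites with few fragments.

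Members, gene lists and tests were chosen with earlier results of these data known. TSSs and features came from GENCODE 44, and sequences from the hg38 reference genome. Group differences of single values were tested with exact permutation tests, single regions with Fisher's exact test on calls and with limma 3.58.1 on log2 relative summit signal, all two-sided. The named sites were the 8 strongest, those beside listed HIF targets called in 15 of 15 tagged and 0 of 3 WT lists, and the 3 with the smallest adjusted p in each direction and contrast, others being named after their values were seen. On simulated data limma recovered 193 of 200 changed regions (log2 change of 1, IDR comparison, 2720 regions) and called 7 others. Alternatives covered peak threshold, list length, TSS set, zone limit, motif, motif window, WT overlap, scaling, replicate block and each library left out. Python 3.11.15, NumPy 2.4.6, SciPy 1.17.1, pandas 2.3.3, pysam 0.24.0, matplotlib 3.10.9 and R 4.3.3 were used.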

Additional observations from a re-analysis of the deposited data

Results flagged for a closer look

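In 40 groups of 6 libraries checked for a library far from the rest, 2 were found, where chance gives about 1 in 20 groups. The AP-1 excess at gene-proximal peaks was 6.08 percentage points in HIF-1α/2α replicate 2, below the other 5 libraries with the HIF-1α DBD. At SLAMF7 the relative summit signal was 2.50 in HIF-2α replicate 3, above the other 5 libraries with the HIF-2α IDR.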

How the results depend on the processing

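Of 428 alternative values of 21 results, 371 kept direction and side of the threshold, 21 reversed, 16 moved, 10 passed newly and 10 no longer passed. The causes were not tested unless the setting's construction shows them. Precision is limited by 3 WT lists, of which 2 held under 1000 peaks, and replicate 2 had the longest list in each of the 6 lines. The moved window, its control motif, the removal of peaks shared with WT and the interaction term were chosen after seeing the data.

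Among peaks with −log10 q of at least 5, the DBD difference in AP-1 excess was -0.225 points, and the fold percentile differed from promoter peaks by 0.531 and from distal peaks by -0.0471. In lists of equal length these 3 values were -0.341, 1.65 and 0.187, the proximal share differed by 0.519 points by IDR and -0.0920 by DBD, the HRE excess by IDR by -1.23, and 30 regions had an unadjusted Fisher p under 0.05 by IDR. With 1 TSS per gene the proximal share was 3.74 points above WT and differed by -0.753 by IDR (adjusted permutation p = 0.0319), the HRE excess differed by -0.245 by IDR and 1.24 from distal peaks, the AP-1 excess by -0.113 by DBD, and the fold percentile by 0.614 from distal peaks. From 2 kb, the AP-1 excess differed by -0.0520 by DBD and by -0.398 from distal peaks. Without peaks that overlap a WT peak, the AP-1 excess differed by -0.535 and the fold percentile by 1.65 from distal peaks.

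With TACGTG the HRE excess differed by 1.31 points from WT, 0.889 by IDR (adjusted permutation p = 0.0425), -0.195 from promoter and -0.143 from distal peaks. Against the control motif it differed by 1.75 from WT, 1.48 by DBD (adjusted permutation p = 0.0319) and 1.24 from promoter peaks, and in the moved window by 3.03 from promoter and -0.702 from distal peaks. In the moved window the HRE excess differed by 0.0550 from distal peaks, and the AP-1 excess by 5.46 from WT and -0.688 by IDR. With depth scaling, limma called 1 gene-proximal region by IDR and 3 by DBD.

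With each library left out in turn, differences from WT ranged from 0.340 (without WT replicate 1) to 3.47 points (without WT replicate 3) for the proximal share, from 4.81 to 6.52 for the HRE excess and from -0.474 to 6.21 for the AP-1 excess. By IDR the HRE excess ranged from -0.344 to 0.642 and the share of regions called from -23.5 to -12.7. By DBD the HRE excess ranged from 0.496 to 1.48, the highest without HIF-2α replicate 2 (adjusted permutation p = 0.0121), and the AP-1 excess from -0.202 to 0.507. Regions with an unadjusted Fisher p under 0.05 numbered 82 to 173 by IDR, most without HIF-2α replicate 2, and 35 to 60 by DBD, most without HIF-2α/1α replicate 2.

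With a replicate block limma called 238 gene-proximal regions by IDR (145 higher with HIF-2α, 93 with HIF-1α) and 222 by DBD (133 and 89), against 210 and 178 without it, and the share of regions called had an exact permutation p of 0.03125 by IDR (adjusted 0.059). The block moved no tested result across the threshold of its adjusted p. The labels do not say that a replicate number marks a batch or day, although their library codes run in sets by replicate number. Residuals of same-numbered libraries correlated at 0.0801 to 0.412 (17 of 18 pairs over 0.1), those of other pairs at -0.271 to 0.0568, and 12 of 12 libraries correlated best with their own number.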
